A study of Homo sapiens with 9 samples.

Results

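ZNF395, its paralogues ZNF704 and SLC2A4RG, and the SLC2A4 and HTT genes were examined in ChIP-seq of eGFP-tagged ZNF395. Members were all peaks of 5 lists within 25 kb of the hg19 start site of each gene. For ZNF395 the window was carried on to the end of the gene, 41.0 kb downstream. This gave 27 peaks of 52875 in all. Tagged 786-O had 11 of its 20034 peaks there, tagged A498 4 of 7718, MYC 11 of 20199, parental 786-O 1 of 3361 and parental A498 0 of 1563.

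786-O and A498 are established cell lines from clear cell renal cell carcinoma. In the tagged groups, eGFP had been knocked in at the 3′ end of ZNF395 by electroporation of a donor and a guide plasmid, and chromatin was precipitated with an antibody against GFP. The parental groups are the same lines without the tag, precipitated with the same antibody, and show its background. The fifth group is parental 786-O precipitated with an antibody against MYC. Each group was 1 library, so no difference below has a replicate check. Whether the tagged cells were a clone or a pool is not stated in the labels. Titles were followed where label fields disagree: both A498 libraries list 786-O as their line, and the MYC library, made with a MYC antibody, lists P300 as its target.

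Each peak has a score from the peak caller, read as the −log10 of a p or q, and a rank by that score, with 1 the highest in its list. Scores of different lists are not on a common scale, so they are compared within a list only. A list holds peaks above a threshold, and signal below it is not seen.

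ZNF395, also called PBF and HDBP2, is a zinc finger protein of the nucleus and cytoplasm that is induced by hypoxia. SLC2A4RG, also called GEF and HDBP1, and ZNF704 carry a related DNA-binding region. ZNF395 and SLC2A4RG are known as proteins that bind the promoter of HTT, the huntingtin gene, through copies of the sequence GCCGGCG. SLC2A4RG is further known to act with MEF2A on the promoter of SLC2A4, which encodes the insulin-responsive glucose transporter GLUT4 of muscle and fat.

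The promoters of HTT and SLC2A4RG are shown because GCCGGCG is the site described for this family. Tagged 786-O cells had a peak over both start sites and over that of ZNF395, but peaks did not decide which promoters are shown. For 2 of the 5 genes, HTT and SLC2A4RG, a promoter was taken from the RefSeq table used, with GRCh38.p14 coordinates. The 250 bases before the start are given 5′ to 3′ on the plus strand, HTT from chr4:3074431-3074680 and SLC2A4RG from chr20:63739526-63739775, with GCCGGCG on either strand in capitals:
HTT: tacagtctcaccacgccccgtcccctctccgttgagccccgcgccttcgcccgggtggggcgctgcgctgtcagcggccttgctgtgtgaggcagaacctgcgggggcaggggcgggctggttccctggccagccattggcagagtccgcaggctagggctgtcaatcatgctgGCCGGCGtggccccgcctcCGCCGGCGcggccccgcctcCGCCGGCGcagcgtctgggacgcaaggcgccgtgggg
SLC2A4RG: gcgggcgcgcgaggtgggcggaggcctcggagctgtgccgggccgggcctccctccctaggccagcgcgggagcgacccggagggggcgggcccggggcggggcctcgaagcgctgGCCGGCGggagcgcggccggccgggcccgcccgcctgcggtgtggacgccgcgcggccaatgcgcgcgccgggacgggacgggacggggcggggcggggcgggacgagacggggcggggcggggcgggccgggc

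HTT held 5 matches to GCCGGCG. A match on one strand overlapped a match on the other at 2 of 3 places, so they fall in 3 separate runs between 76 and 30 bases before the start. SLC2A4RG held 1 match, 134 to 128 bases before the start. At least 1 match was found in 8.88% of the 35116 promoters of the table, in the same 250 bases, and at least 3 separate runs in 0.108%. GCCGGCG was chosen because it is known from the HTT promoter. Its copies there were thus fixed in advance, and the share does not test them. The shorter sequence CCGG, which lies inside GCCGGCG, occurred 4 times in HTT and 9 times in SLC2A4RG; 17.5% of all promoters held 4 or more and 0.681% held 9 or more. Both promoters were rich in G and C, at 74.8% in HTT and 86.8% in SLC2A4RG, against a median of 58% over the table. A match is a run of letters and does not show binding.

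Across the 5 genes, ZNF395-eGFP peaks lay near ZNF395, SLC2A4RG, SLC2A4 and HTT in 786-O and near ZNF395, SLC2A4RG, SLC2A4 and ZNF704 in A498. Tagged-only peaks, those that no parental peak of their own line overlaps, were found at 4 of 5 genes in either line. Of 58895 adjoining 50 kb bins of the genome, 20.2% held a tagged-only 786-O peak and 10.2% a tagged-only A498 peak. Bins take no account of genes, and in the 12414 bins with a MYC peak these shares were 71.2% and 28%. MYC peaks lay near 4 of 5 genes, against 21.1% of all bins. Parental 786-O had a peak at 1 gene and parental A498 at none, against 4.12% and 1.32% of bins.

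**Figure D1:**
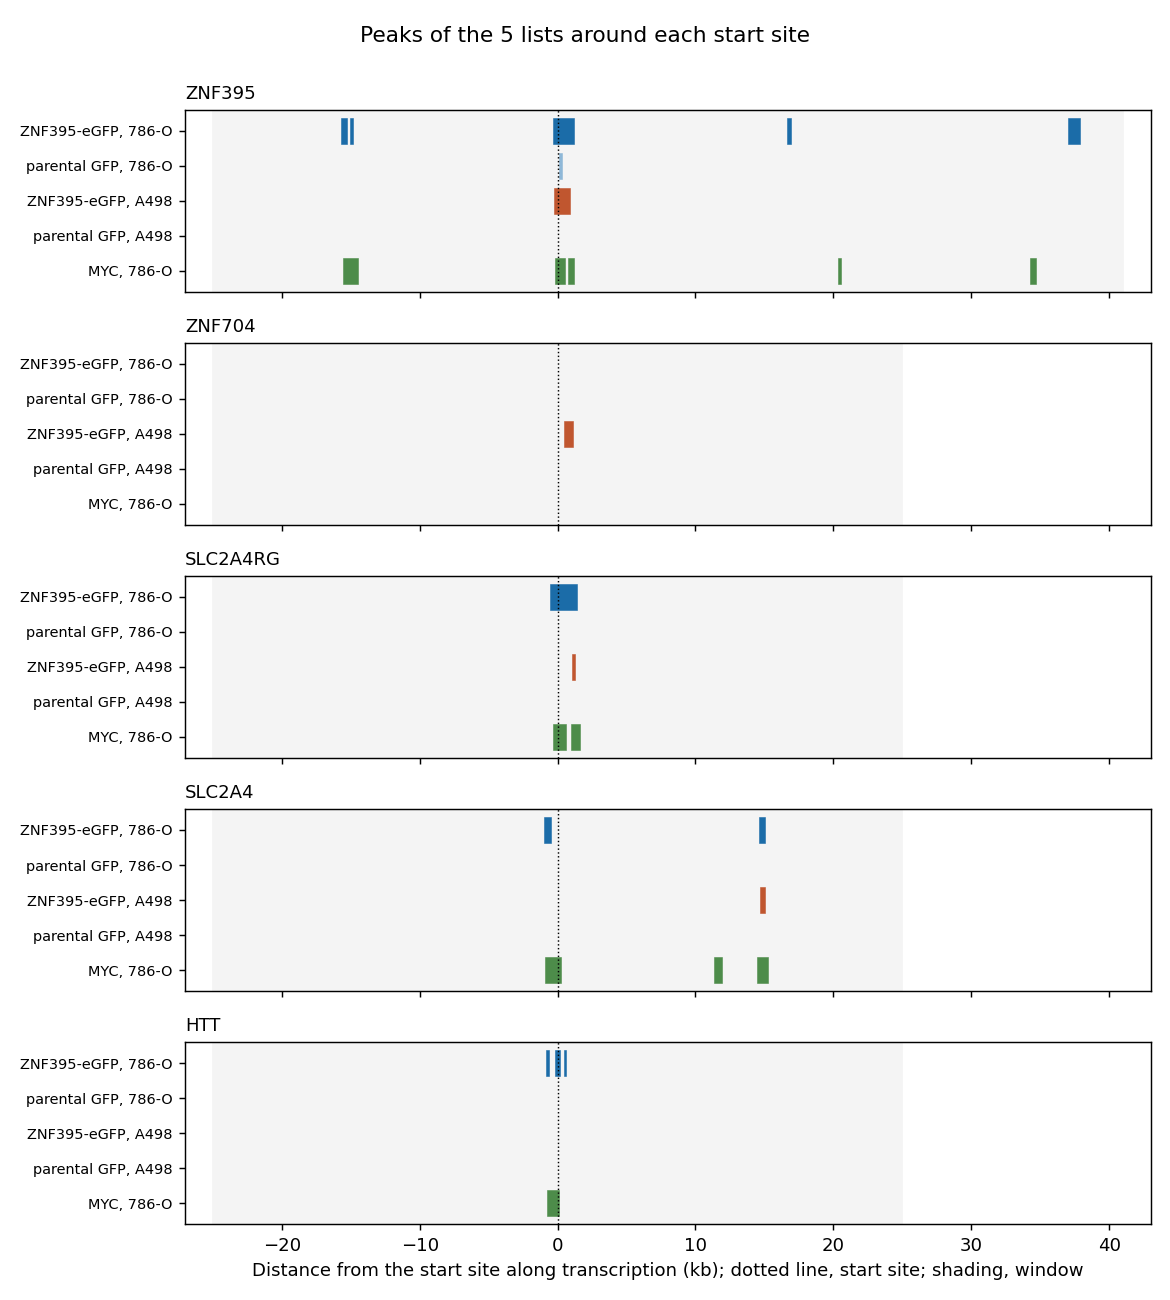
Peaks of each list (rows) by distance from the start site in kb along transcription, 1 panel per gene, with bars from the first to the last base of a peak and the window shaded. ZNF395 has the most peaks, 5 in tagged 786-O and 5 for MYC, and ZNF704 has only a tagged A498 peak.

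Within these windows, 10 of the 11 tagged 786-O peaks and 4 of the 4 tagged A498 peaks were tagged-only, near the 87.8% and 93.1% of the whole lists. MYC peaks overlapped 7 of the 10 tagged-only 786-O peaks, against 58.8% in the whole list, and 3 of the 4 tagged A498 peaks, against 46.8%. Of the 11 MYC peaks, 8 overlapped a tagged 786-O peak, against 60.9%. A tagged 786-O peak lay over 3 of the 4 tagged A498 peaks, against 56.6%, and 3 of the 11 tagged 786-O peaks lay over a tagged A498 peak, against 20.5%. With so few peaks, none of these counts sets the genes apart from their lists.

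At ZNF395 itself, a tagged 786-O peak covered the start site, and the gene had 4 further tagged 786-O peaks. The start-site peak lay on chromosome 8 at 28242755 to 28244273, from 296 bp upstream to 1222 bp downstream. Its score was 49.4, its rank was 1827, and 90.9% of the list scored lower. With 1519 bp it was also wider than 97.3% of the list. It spanned 2 MYC peaks, one over the start site with a score of 26.2 (rank 6669) and one from 737 to 1155 bp downstream with a score of 13.3 (rank 11689).

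In A498 the peak over the ZNF395 start ran from 274 bp upstream to 889 bp downstream and lay wholly inside that of 786-O. Its score was 6.73 and its rank 2911, so 61.7% of the A498 list scored lower, while 99.4% of that list was narrower than its 1164 bp. In both lines, then, the start-site peak was among the widest of its list.

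Of all these sites, the ZNF395 start was the only one where the GFP antibody also gave a peak in untagged cells. Parental 786-O had a peak of 214 bp there, 111 to 324 bp downstream of the start, with a score of 2.84 and rank 3155 of 3361. It was near the calling threshold, and only 6.16% of parental 786-O peaks scored as low or lower. Of the 2438 tagged 786-O peaks at parental peaks, 116 (4.76%) met only parental peaks this weak. Parental A498 had no peak within 611.8 kb of the start. By the rule used here the start-site peak counts as tagged-only in A498 and not in 786-O. The A498 peak also overlaps the parental 786-O peak, so it is no longer tagged-only when peaks of either parental list are removed, which leaves 3 tagged-only A498 peaks at 3 genes.

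**Figure D2:**
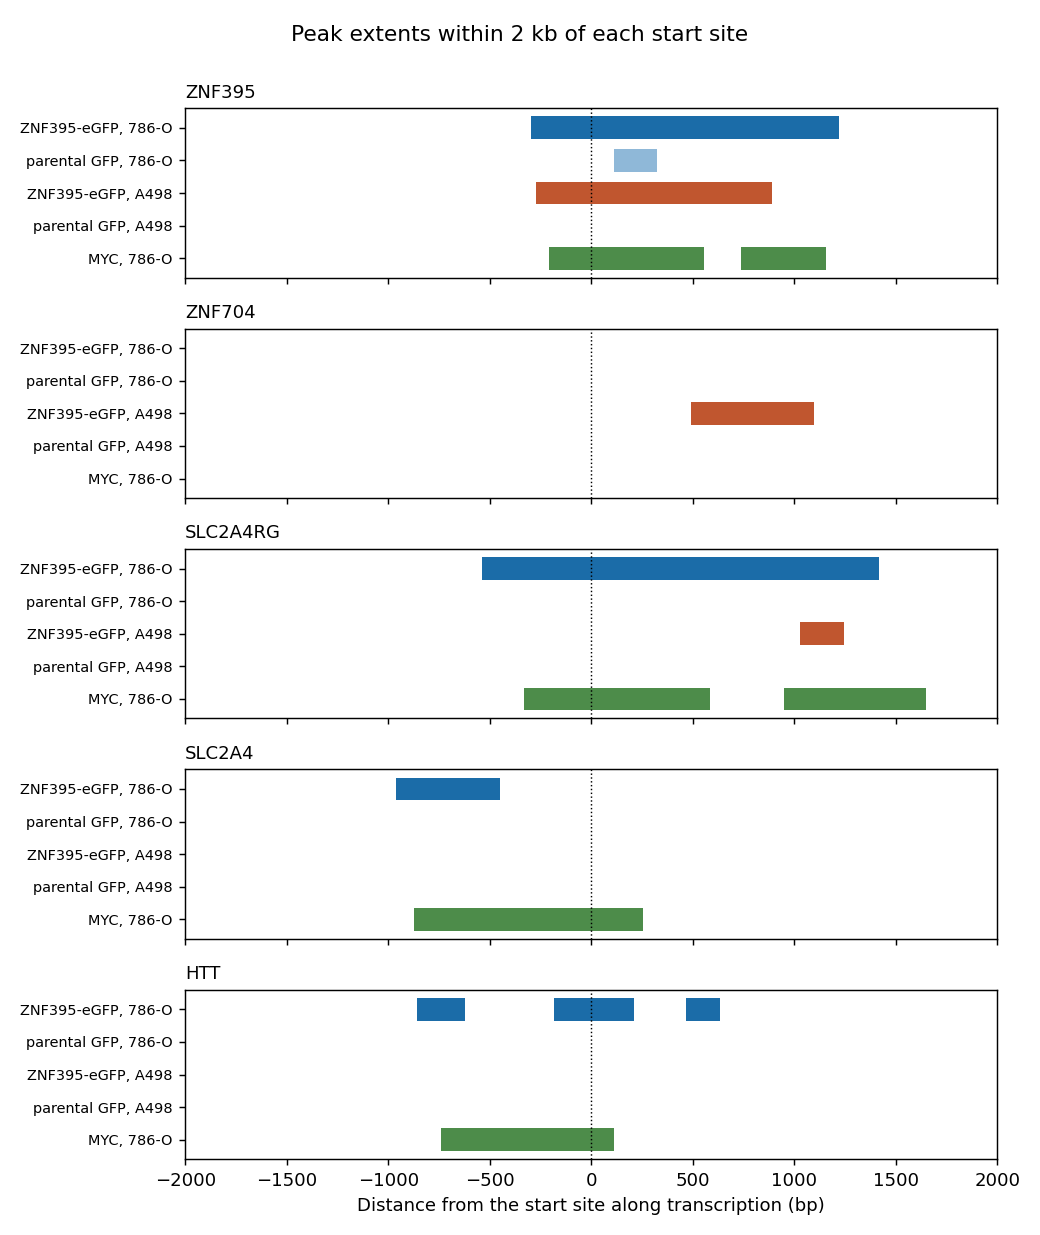
Extent of each peak within 2 kb of the start site (dotted line), in bp along transcription, with lists as rows and 1 panel per gene. At ZNF395 the tagged peaks of both lines cover the start and a 214 bp parental 786-O peak lies inside them, whereas at SLC2A4 the MYC peak covers the start and the tagged 786-O peak ends 450 bp before it.

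Upstream of ZNF395, toward FBXO16, the next protein-coding gene in RefSeq, tagged 786-O had a pair of peaks. The stronger ran from 15.7 to 15.3 kb upstream, at 28259257 to 28259699, with a score of 41.4, rank 2545 and 87.3% of the list below it. The weaker, separated from it by 250 bp, had a score of 3.76 and rank 18895. Both overlapped 1 MYC peak of 1099 bp with a score of 40.2 and rank 4143. A second peak of the same list within 500 bp was found for 17.2% of all tagged 786-O peaks. No A498 and no parental peak lay at this upstream site, while 45.7% of the 786-O peaks in the same 10% band of ranks as the stronger one overlapped an A498 peak.

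Inside ZNF395, tagged 786-O had peaks 16.6 to 16.9 kb and 37.0 to 37.9 kb downstream of the start, both tagged-only, without a MYC or A498 peak. The first, of 297 bp, had a score of 8.25 and rank 13704. The second, at 28206084 to 28206983, had a score of 11.0, rank 11375 and a width of 900 bp. RefSeq gives ZNF395 a length of 40.9 kb in GRCh38.p14, so this peak lies in the last part of the gene, on the side where the tag was inserted. It was wide for its score: of the 3043 tagged 786-O peaks at least as wide, 106 (3.48%) ranked as low or lower. Only 16 of those 106 had no MYC peak. Tagged A498 had no peak there, as was usual at this strength: 7.67% of the 786-O peaks in the same 10% band of ranks overlapped an A498 peak. Whether the inserted tag or donor sequence bears on this peak was not tested.

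MYC had peaks of its own inside ZNF395, 34.2 to 34.7 kb downstream with a score of 48.9 (rank 3245) and 20.4 to 20.6 kb downstream with a score of 6.01 (rank 17981). Neither overlapped a tagged peak of either line. The MYC peak at 34.2 kb had the highest MYC score in the ZNF395 window, above the 26.2 at the start site.

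At SLC2A4RG, the gene of the other HTT promoter-binding protein, 1 tagged 786-O peak of 1955 bp reached from 536 bp upstream of the start to 1418 bp downstream. It lay on chromosome 20 at 62370675 to 62372629 and was wider than 99.2% of the list. Its score of 50.2 (rank 1788) was close to the 49.4 (rank 1827) of the ZNF395 start, and no error is available to tell these apart. Neither parental list had a peak in the window, the nearest being 46.2 kb away in 786-O and 46.1 kb in A498.

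The SLC2A4RG peak met 2 MYC peaks, as did the one at the ZNF395 start. The MYC peak over the start had a score of 16.5 (rank 9919), and the one from 948 to 1647 bp downstream had a score of 53.3 (rank 2866). The A498 peak was narrow, 216 bp from 1030 to 1245 bp downstream, with a score of 6.11 and rank 3432. It lay wholly within the stronger, downstream MYC peak and did not reach the start site. In the upper 10% of the 786-O list, to which both start-site peaks belong, 73.5% overlapped an A498 peak, 86.8% a MYC peak and 29.5% a parental 786-O peak. The tagged 786-O peak covers the whole stretch of promoter sequence shown above if the start sites of both builds are the same base, which was not examined.

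ZNF704, the other paralogue, differed in which lists had a peak. Tagged A498 had a peak of 610 bp on chromosome 8 at 81785917 to 81786526, 490 to 1099 bp downstream of the start. Its score was 15.6 and its rank 737, so 90.5% of the list scored lower. No other list had a peak in the window. The nearest tagged 786-O peak was 123.6 kb away with rank 18808, and the nearest MYC peak was 151.6 kb away. Parental peaks were 387.9 kb away in 786-O and 967.6 kb in A498.

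Among the 737 highest tagged A498 peaks, 69 (9.36%) had no tagged 786-O peak, and 35 (4.75%) had neither a tagged 786-O nor a parental A498 peak. None of the 69 overlapped a MYC peak of 786-O, so the lack of MYC at ZNF704 was common to all A498 peaks of this strength without a 786-O peak. On chromosome 8 a tagged 786-O peak lay over 42.8% of all 491 tagged A498 peaks, against 56.6% in the whole list. Of the 44 chromosome 8 peaks that ranked as high as the ZNF704 peak or higher, 5 (11.4%) had no tagged 786-O peak, against the 9.36% above. Only 3 of the 44, the ZNF704 peak among them, had neither a tagged 786-O nor a parental A498 peak. The number of copies of chromosome 8 in either line was not measured here, and its part in these shares was not tested.

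**Figure D3:**
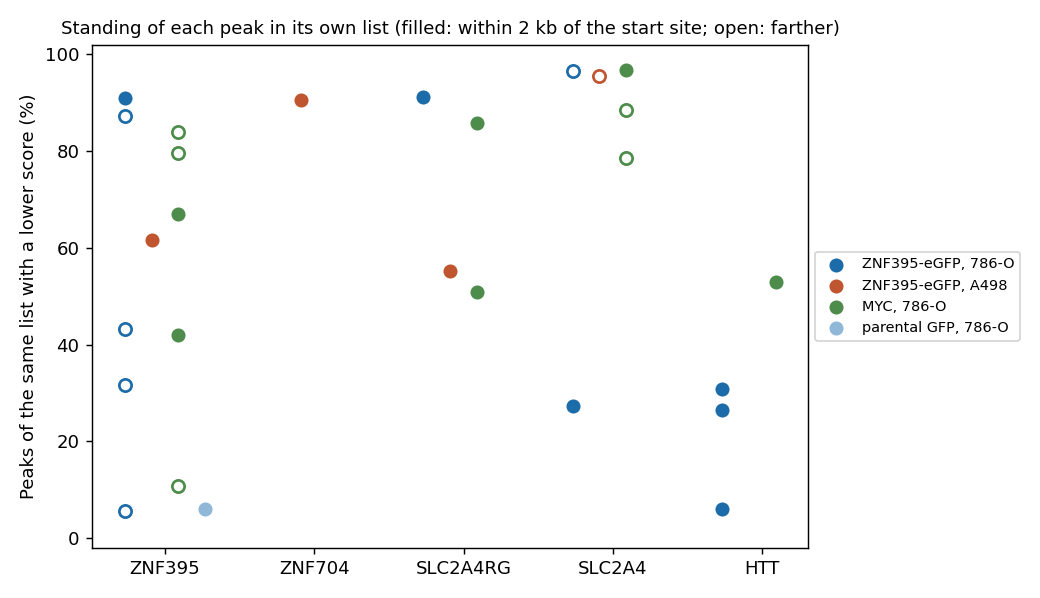
Standing of every peak in its own list, as the percent of that list with a lower score (y axis), by gene, coloured by list; filled points lie within 2 kb of the start site and open points farther away. Start-site peaks of tagged 786-O stand at 90.9% for ZNF395 and 91.1% for SLC2A4RG, and at 30.7% or less for SLC2A4 and HTT.

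HTT, the gene whose promoter gave ZNF395 one of its names, had 3 weak tagged 786-O peaks around its start and none in A498. The middle one, on chromosome 4 at 3076224 to 3076616, covered the start from 184 bp upstream to 208 bp downstream, with a score of 8.13 and rank 13874. Only 30.7% of the list scored lower. The upstream peak, 859 to 624 bp before the start, had a score of 7.29 (rank 14744), and the downstream one, 466 to 636 bp after it, had a score of 3.77 (rank 18846). The gaps between them were 439 and 257 bp.

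If the start site is the same base in both builds, the 3 runs of GCCGGCG shown above lie inside the middle peak, which begins 184 bp before the start. A MYC peak of 849 bp, from 738 bp upstream to 110 bp downstream, overlapped the upstream and the middle peak, with a score of 17.6 and rank 9481. The downstream peak had no MYC peak. No parental peak lay within 137.2 kb in 786-O or 467.0 kb in A498.

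The nearest tagged A498 peak to HTT was 139.6 kb away. In the 10% band of 786-O ranks that holds the middle peak, 4.57% of peaks overlapped an A498 peak and 49.2% a MYC peak. A 786-O peak of this strength was thus seldom matched in A498 anywhere in the genome, and lack of a peak in the shorter A498 list does not show that ZNF395 was absent there.

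SLC2A4 had its weaker 786-O ZNF395-eGFP peak by the start and its stronger one farther away. By the start, tagged 786-O had a peak of 515 bp on chromosome 17 at 7184022 to 7184536, from 964 to 450 bp upstream, with a score of 7.43 and rank 14547. The MYC peak at the same place covered the start, with a score of 125.8 and rank 663, the highest MYC rank of all 5 genes. A498 had no peak there. Of the 665 MYC peaks with that rank or higher, 611 (91.9%) overlapped a tagged 786-O peak, and in 38 (5.71%) the best such peak ranked as low as at SLC2A4 or lower.

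Some 14.6 to 15.1 kb downstream of the SLC2A4 start lay the tagged peak of best rank near any of the 5 genes, in both lines. In 786-O it ran from 7199618 to 7200050 with a score of 75.8 and rank 711, so 96.5% of the list scored lower. In A498 it ran from 7199692 to 7200011, inside the 786-O peak, with a score of 23.6 and rank 350, above 95.5% of the list. The midpoints in both lines were 17.5 bp apart. A MYC peak of 805 bp with a score of 61.3 and rank 2342 enclosed both.

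This distal site lies past the end of SLC2A4, which has a RefSeq length of 6.5 kb. YBX2 and EIF5A are the next protein-coding genes in that direction, and which gene the site belongs to was not determined. A further MYC peak, 11.3 to 11.9 kb downstream with a score of 38.8 (rank 4341), had no tagged peak. Parental peaks were 38.7 kb away in 786-O and 38.6 kb in A498. Order by score thus differed between antibodies within this window: MYC was highest at the SLC2A4 start, and ZNF395-eGFP was highest at the distal site.

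By the best-ranked peak of each gene, the order in tagged 786-O was SLC2A4 (rank 711), SLC2A4RG (1788), ZNF395 (1827) and HTT (13874). For MYC the order was the same, with ranks of 663, 2866, 3245 and 9481. In tagged A498 it was SLC2A4 (350), ZNF704 (737), ZNF395 (2911) and SLC2A4RG (3432). These best peaks were not always at the same site for both antibodies. In both tagged lists the SLC2A4 peak is the distal one, which was not assigned to a gene. By the SLC2A4 start, where MYC was highest, the tagged 786-O peak ranked 14547, lower than HTT, and A498 had none. The best MYC peak at ZNF395, 34.2 kb downstream, overlapped no tagged peak. Whether close neighbours such as ranks 1788 and 1827 would keep their order in another library is unknown. Within 2 kb of the start, tagged 786-O had peaks at ZNF395, SLC2A4RG, SLC2A4 and HTT, and tagged A498 at ZNF395, SLC2A4RG and ZNF704.

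**Figure D4:**
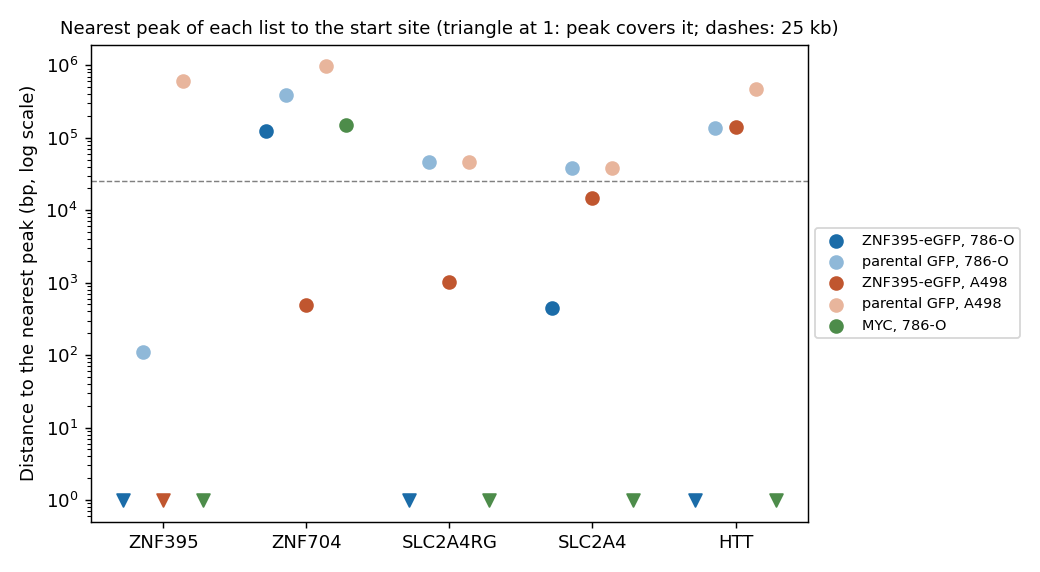
Distance from each start site to the nearest peak of each list, in bp on a log scale, with triangles drawn at 1 where a peak covers the start and a dashed line at 25 kb. ZNF395-eGFP and MYC peaks of 786-O lie close to every start but that of ZNF704, where the nearest are 123.6 and 151.6 kb away.

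The 25 kb limit left out sites just beyond it. A tagged 786-O peak 25.1 kb upstream of ZNF395, at 28269074 to 28269945, had a score of 49.4 and rank 1832, next to the rank of 1827 at the ZNF395 start. Tagged A498 (rank 2080) and MYC (rank 12415) also had peaks there, 25.3 kb upstream. Beyond the SLC2A4 window, a MYC peak (rank 6793) began 25.2 kb and a tagged 786-O peak (rank 5344) 26.0 kb downstream. Within 25 kb of a start, the farthest peak was the MYC peak 20.4 kb downstream of ZNF395 (rank 17981). The longer ZNF395 window also held the MYC peak at 34.2 kb and the tagged 786-O peak at 37.0 kb downstream.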

How the data were processed

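ChIP-seq peak lists of 5 libraries were used, and 4 input libraries entered only through the authors' peak calls. BWA, MACS2 and the hg19 build are named in the submitters' processing notes, with no versions, roles or settings. The score deposited for a peak was taken to be −log10 of its p or q, because the lowest score of every list is close to 2, which is −log10 of 0.01. A score depends on the depth and control of its own library, so scores are compared within a list only, as ranks or as the percent of the list that scored lower. These lists hold no read counts, and the depth of a peak is therefore unknown.

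A peak belonged to a gene when any base lay in its window, and peaks overlapped when they shared at least 1 bp. Groups follow the sample titles. No test or error could be computed from 1 library per group. All 5 genes and all their peaks are named. The genes, the lists and the shares set beside them were chosen with earlier results of these data known. Backgrounds are shares of whole lists and of fixed, adjoining 50 kb bins. Start sites are those of the selection rule; other pathway genes, and genes with a like pattern, need hg19 start sites and were not analysed here. Alternatives covered window size, overlap rule, parental subtraction, score threshold and list length. Overlap rules were tested on simulated data and against bedtools 2.31.1. Python 3.11.15, numpy 2.4.6, pandas 2.3.3 and matplotlib 3.10.9 were used.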

Additional observations from a re-analysis of the deposited data

How the results depend on the processing

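Of 61 values recomputed for 11 counts, 38 stayed within 1.5 times the reported count and 23 did not. With 10 kb windows, the gene windows held 6 tagged 786-O peaks, of which 5 were tagged-only and 4 of these at MYC, and 6 MYC peaks. With 50 kb windows they held 25 tagged 786-O peaks (22 tagged-only, 16 of these at MYC), 8 tagged A498 peaks (8 tagged-only, 7 at tagged 786-O peaks), 26 MYC, 4 parental 786-O and 2 parental A498 peaks. With the upper 50% of scores, 4 tagged 786-O peaks remained, all 4 tagged-only and at MYC, and 0 parental 786-O peaks. The parental list was cut as well, which removed its weak peak at the ZNF395 start. The tagged 786-O peak there counted as tagged-only for that reason. Lists cut to equal length left 1 tagged 786-O, 2 tagged A498, 1 MYC and 0 parental 786-O peaks. Fewer or more peaks follow from these rules themselves. Tagged-only 786-O peaks at MYC numbered 2 under a 50% reciprocal rule and 2 under the midpoint rule of 200 bp, against 7; the same rules also decide which peaks count as tagged-only. Under these overlap rules the 786-O peak at the ZNF395 start counted as tagged-only (11 of 11 peaks). The parental peak there has 214 bp and the tagged one 1519 bp, so a 50% reciprocal match was not possible. Their midpoints lay 245.5 bp apart, and the parental peak still lies wholly inside the tagged one. With peaks of either parental list removed, tagged-only A498 peaks fell from 4 to 3, the lost one being that at the ZNF395 start. Genes with a tagged-only peak numbered 3 or 4 of 5 in either line under every alternative run. Each group is 1 library of unknown depth at single peaks. No paired analysis was possible because each group has 1 library.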
